A study of Homo sapiens with 5 samples.

Results

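XBP1 and 9 endoplasmic reticulum (ER) genes whose transcription is tied to XBP1 and ATF6 were followed in MDA-MB-231 cells given SAHA or DMSO. The genes were the transcription factor XBP1, the chaperones HSPA5 and HSP90B1, the cochaperones DNAJB9 and SDF2L1, the disulfide isomerases PDIA4 and CRELD2, and the ER-associated degradation genes HERPUD1, SEL1L and EDEM1. They were found by gene symbol in the array's annotation, which gave 20 of the 54675 probe sets, and all 10 genes were among the 19775 genes tested. SEL1L had 4 probe sets, DNAJB9 had 3, XBP1, HSPA5, HSP90B1, HERPUD1 and PDIA4 had 2 each, and SDF2L1, CRELD2 and EDEM1 had 1 each. A further 2 probe sets are annotated jointly to MIR3652 and HSP90B1; their values are given with those of HSP90B1 but enter no count.

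The MDA-MB-231 line derives from a human breast carcinoma and grows with a mesenchymal appearance; SAHA, the hydroxamate drug vorinostat, blocks histone deacetylases. The 2 SAHA arrays came from cells kept for 30 h in medium with 2 uM SAHA, and the 3 DMSO arrays from cells kept for 30 h with the DMSO vehicle alone. All cells were of the same line, with no other allele or agent given in the labels, apart from a transfection that the RNA extraction text mentions and no other label describes. The labels do not say whether arrays of a group came from separate cultures, so each p-value rests on a spread between arrays that may be only technical.

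The unfolded protein response is the set of signals that leaves the ER when unfolded proteins build up in it. The membrane sensor IRE1 (ERN1) splices XBP1 mRNA so that it encodes an active transcription factor, ATF6 moves to the Golgi and is cut there by the proteases MBTPS1 and MBTPS2 to release another, and PERK (EIF2AK3) slows translation while favouring that of ATF4. XBP1 and ATF6 then raise transcription of ER chaperones, protein disulfide isomerases and the ER-associated degradation machinery, which returns misfolded proteins to the cytosol for the proteasome. The table gives no value for spliced XBP1 mRNA on its own, so the values below are for XBP1 mRNA as its probe sets read it.

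ATF6 with NF-Y binds the ER stress element, and XBP1 binds related sequences, so the promoters are shown before the values. RefSeq promoters (GRCh38.p14, 250 bases before to 50 after the start of transcription) were found for all 10 genes, 12 promoters in all since XBP1 and PDIA4 have 2 starts each. They were searched on both strands for the exact letters of the ER stress element (CCAAT, then any 9 bases, then CCACG), of ER stress element II (ATTGG, then any 1 base, then CCACG), of the unfolded protein response element TGACGTGG, and for CCACG alone, which is also part of both ER stress elements. XBP1 and HSPA5 are shown whole because both carry an exact match to the same element in a similar place and differed in their response. The pair was thus picked with the values known. Each promoter runs 5′ to 3′ on the gene's own strand, and capitals mark the CCAAT and CCACG ends of the exact match. Near matches with other letters were not searched for and are not marked, so the promoters may differ in them. The XBP1 promoter is chr22:28800520-28800819 on the minus strand, and that of HSPA5 is chr9:125241294-125241593 on the minus strand.
XBP1 promoter: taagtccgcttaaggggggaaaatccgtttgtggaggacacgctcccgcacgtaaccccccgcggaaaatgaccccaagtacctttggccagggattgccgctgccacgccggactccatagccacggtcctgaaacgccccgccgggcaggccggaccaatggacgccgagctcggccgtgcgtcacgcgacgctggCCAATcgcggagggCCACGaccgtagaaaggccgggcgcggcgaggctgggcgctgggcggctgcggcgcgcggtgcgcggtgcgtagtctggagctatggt
HSPA5 promoter: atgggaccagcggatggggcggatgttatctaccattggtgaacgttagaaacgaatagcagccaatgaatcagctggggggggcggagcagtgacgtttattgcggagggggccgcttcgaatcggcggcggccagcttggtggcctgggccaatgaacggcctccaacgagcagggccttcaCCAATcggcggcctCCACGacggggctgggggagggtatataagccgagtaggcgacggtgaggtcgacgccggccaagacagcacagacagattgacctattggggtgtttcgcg

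The element of XBP1 lay at bases -52 to -34 from the start of transcription and that of HSPA5 at -66 to -48. The promoter of the other XBP1 start held no exact match to it. HSP90B1 (chr12:103930160-103930459, plus strand) held the element at -194 to -176 and again, on the opposite strand, at -89 to -71. CRELD2 (chr22:49918384-49918683, plus strand) held it on the opposite strand at -80 to -62. ER stress element II was found in HERPUD1 (chr16:56931892-56932191, plus strand) at -117 to -107 and, on the opposite strand, in SDF2L1 (chr22:21642052-21642351, plus strand) at -188 to -178. They are set side by side here on the gene's strand, again with the ends in capitals, so that an element on the opposite strand reads CGTGG first.
XBP1 element: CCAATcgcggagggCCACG
HSPA5 element: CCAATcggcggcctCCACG
HSP90B1 upstream element: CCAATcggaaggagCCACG
HSP90B1 downstream element: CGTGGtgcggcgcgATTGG
CRELD2 element: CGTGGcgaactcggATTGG
HERPUD1 element II: ATTGGgCCACG
SDF2L1 element II: CGTGGaCCAAT

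The exact letters of the ER stress element were in 4 of the 10 genes, against 25 of all 27305 genes with a RefSeq promoter (0.0916%). Those of ER stress element II were in 2 of the 10 genes, against 19 of the 27305 genes (0.0696%). Both elements were first described in promoters of such genes, so their presence here is background and not a result of the arrays. DNAJB9, SEL1L, PDIA4 and EDEM1 had neither in this window. CCACG alone was in all 12 promoters of the 10 genes and in 38.1% of all promoters, and the unfolded protein response element was in none of the 12 and in 0.729% of all promoters.

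**Figure D1:**
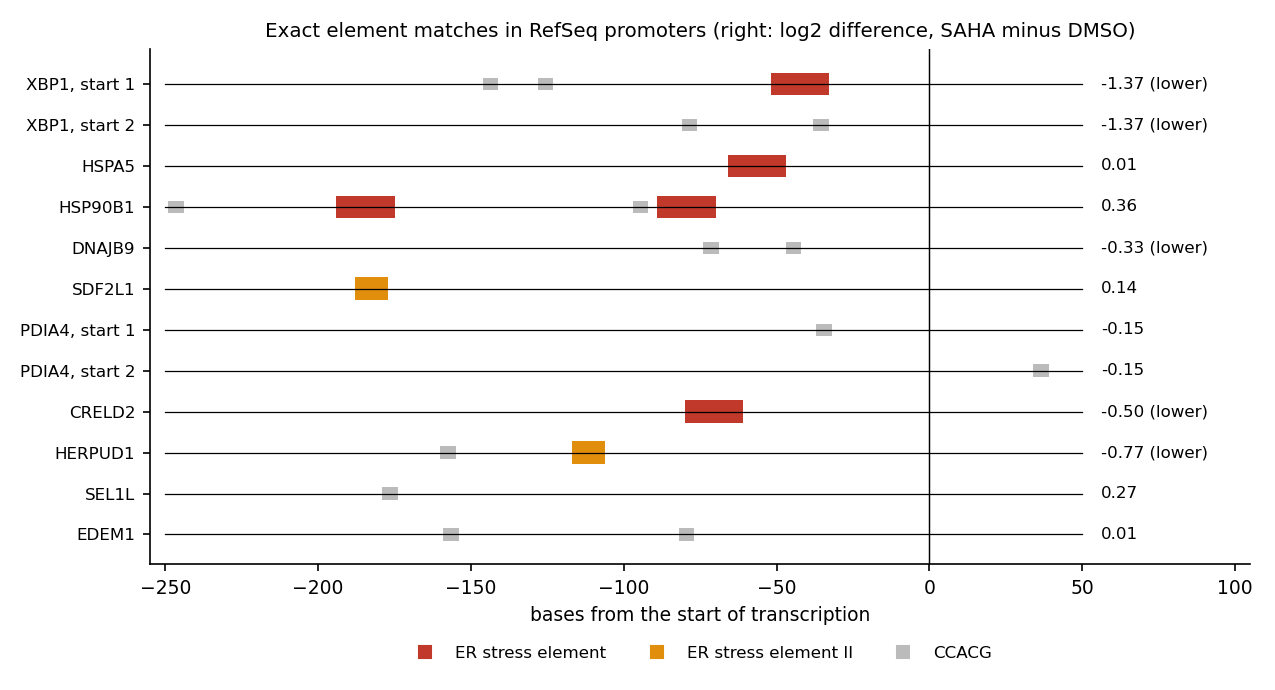
Exact element matches in the 12 promoters of the 10 genes, by distance in bases from the start of transcription; the value at the right of each line is the gene's log2 difference, SAHA minus DMSO. The ER stress element lies in promoters of genes that were called lower (XBP1, CRELD2) and of genes that were not called (HSPA5, HSP90B1).

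The 5 arrays had alike distributions, with median log2 intensities of 6.47 to 6.51, and correlated at 0.9968 to 0.9980 within groups and 0.9824 to 0.9840 between them. DMSO array 1 stood apart in the 3′ to 5′ balance of ACTB, a sign of RNA quality: its 3′ minus 5′ difference reached 3.29 log2 units, where the SAHA arrays had 2.16 and 2.04 and the other DMSO arrays 2.08 and 2.22. All 7 mesenchymal markers of the line were measured, with summed intensities of 54856 to 59881 in SAHA cells and 62359 to 62909 in DMSO cells; AXL and MSN fell, SNAI2 rose and VIM, CD44, ZEB1 and CAV1 were not called. The summed intensity of 7 plasma cell genes, a secretory cell type rich in XBP1, was 982 to 1024 in SAHA cells and 1273 to 1441 in DMSO cells. JCHAIN (SAHA mean 3.06, DMSO mean 3.02 log2 units), TNFRSF17 (4.23 and 4.24) and POU2AF1 (4.34 and 4.30) lay below the array medians. IRF4 (6.42 and 6.54) lay close to them. MZB1 (7.05 and 6.96), PRDM1 (7.01 and 7.14) and SDC1 (9.25 and 9.88) lay above them. SDC1, which epithelial cells also make, fell by 0.63 (adjusted p = 0.00736) and the rest of the plasma cell list was not called. Fibroblast genes summed to 1235 to 1259 in SAHA cells and 1380 to 1435 in DMSO cells (6 of 6 measured), leucocyte genes to 261 to 265 and 286 to 308 (4 of 6 measured), and luminal and epithelial genes to 6531 to 7212 and 5383 to 6311 (8 of 8 measured). In that last list ERBB2, GATA3 and EPCAM fell and CDH1 rose, while KRT8, at 12.15 and 12.38 log2 units in SAHA cells and 11.39, 11.84 and 11.83 in DMSO cells, was not called. The part of these marker changes in the results was not tested.

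Of the 10 genes, 4 fell in SAHA cells (XBP1, HERPUD1, CRELD2 and DNAJB9), 0 rose and 6 were not called. A gene was called where limma's two-sided test gave a Benjamini-Hochberg adjusted p under 0.05 over all 19775 genes, with the brightest probe set standing for its gene; at an unadjusted p under 0.05 the counts were the same 4 and 0. Among all genes tested, 15.6% were called lower and 14.0% higher. The median log2 difference of the 10 genes was -0.07, against -0.03 over all genes, so as a group they sat close to the middle of the table while their single values ran from -1.37 to 0.36. Both SAHA arrays lay below all 3 DMSO arrays for 4 of the 10 genes and above them for 2, where the shares over all genes were 26.0% and 22.1%.

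**Figure D2:**
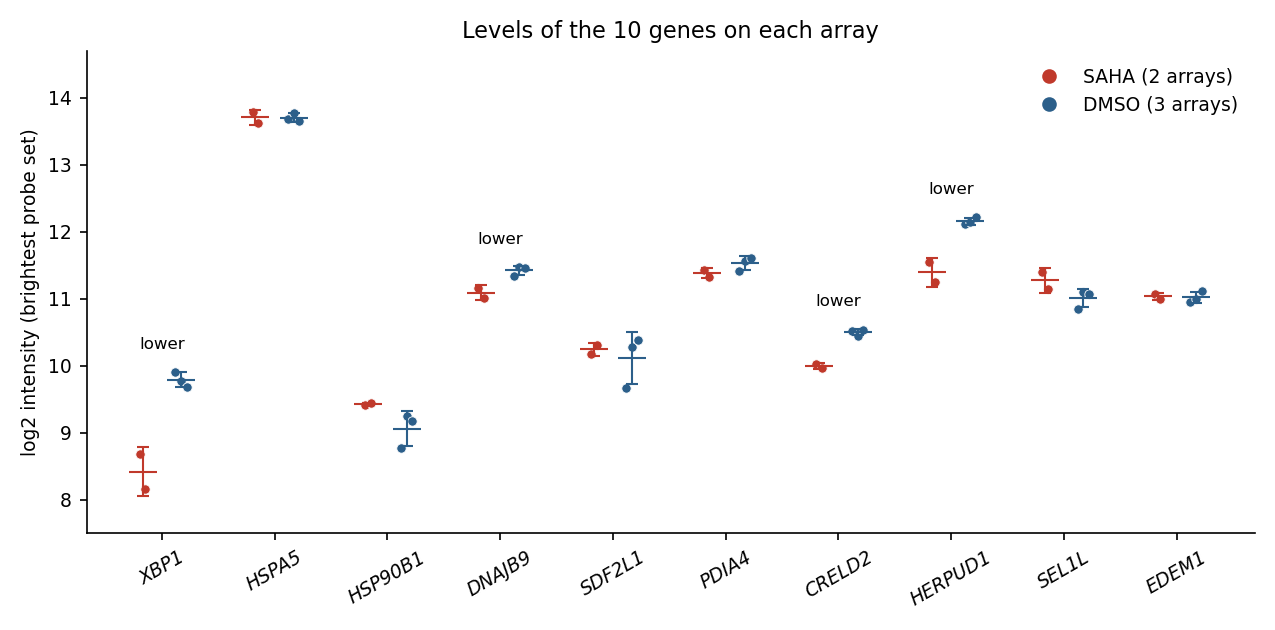
Log2 intensity of the brightest probe set of each of the 10 genes on every array, SAHA (2 arrays) left of DMSO (3 arrays); the long bar is the group mean and the whiskers are 1 SD. XBP1, DNAJB9, CRELD2 and HERPUD1, marked as lower, have both SAHA points below all DMSO points, and HSPA5 and EDEM1 overlap.

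XBP1, the transcription factor that drives ER expansion in secretory cells, had 8.67 and 8.16 log2 intensity units on the SAHA arrays, against 9.90, 9.78 and 9.68 on the DMSO arrays. Both SAHA arrays were low, the second more so than the first, and the groups did not overlap. The means were 8.42 ± 0.37 in SAHA cells and 9.79 ± 0.11 in DMSO cells (SD, n = 2 and 3), a log2 difference of -1.37 ± 0.17 (SE, 95% interval -1.83 to -0.92) and an adjusted p of 0.00568. XBP1 mRNA was thus 2.59-fold lower, the 192nd lowest difference among the 19775 genes. It was the only one of the 10 called at least 2-fold lower, as were 502 of all genes. In RNA from whole cultures, fewer cells with XBP1 mRNA and less XBP1 mRNA per cell cannot be told apart. The difference stayed between -1.63 and -1.11 with any 1 array left out (adjusted p 0.0189 to 0.0386). The other XBP1 probe set, 242021_at, read 6.11 and 5.87 in SAHA cells and 6.11, 6.32 and 6.11 in DMSO cells, all below the array medians, and was not called (log2 difference -0.19, adjusted p = 0.351 over 54613 probe sets). Averaged over both probe sets, XBP1 differed by -0.78 (adjusted p = 0.00868).

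The genes most like XBP1 over the 5 arrays, by the root mean square distance of their log2 values after each gene was set to 0 at its DMSO mean, were SHOX2 (0.053), PER2 (0.055), MBNL3 (0.056), EVI2B (0.058) and NDC80 (0.064). PER2 is a component of the circadian clock and NDC80 a kinetochore protein. None of them is on the ER lists described here, and each was picked for its likeness to a gene that fell.

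Neither major ER chaperone was called. HSPA5 (BiP), the Hsp70 of the ER that holds unfolded chains and keeps the stress sensors inactive, had 13.79 and 13.62 log2 units on the SAHA arrays, against 13.68, 13.78 and 13.65 on the DMSO arrays. The groups overlapped, and the difference was 0.01 ± 0.07 (95% interval -0.19 to 0.20, which is 0.879-fold to 1.15-fold; adjusted p = 0.966). Its second probe set, 230031_at, was at 8.52 and 8.52 in SAHA cells and 8.49, 8.60 and 8.66 in DMSO cells (log2 difference -0.06, adjusted p = 0.548). The interval of HSPA5 thus lay wholly above that of XBP1. The HSPA5 promoter and 1 of the 2 XBP1 promoters hold the ER stress element shown above. The part of the element in either value was not tested.

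HSP90B1 (GRP94), the Hsp90 of the ER, which folds integrins and Toll-like receptors, was read by 2 probe sets of its own and by the 2 that it shares with MIR3652. The brighter of its own, 216449_x_at, had 9.41 and 9.44 log2 units in SAHA cells, against 8.77, 9.25 and 9.17 in DMSO cells. Both SAHA arrays were above every DMSO array, of which array 1 was the lowest, and the difference of 0.36 ± 0.16 was not called (95% interval -0.06 to 0.78, adjusted p = 0.183). Without DMSO array 1, whose ACTB 3′ minus 5′ difference was the highest, the difference was 0.21, smaller but with a lower adjusted p of 0.0686, and still not called. The part of RNA quality in the difference was not tested. Its other probe set, 216450_x_at, overlapped between groups (log2 difference 0.06, adjusted p = 0.837). The joint probe sets gave log2 differences of 0.46 (200598_s_at, 9.55 and 9.55 in SAHA cells and 8.89, 9.18 and 9.18 in DMSO cells, adjusted p = 0.0539) and 0.14 (200599_s_at, adjusted p = 0.358), neither of them called. The second of these had 13.23 and 13.06 in SAHA cells and 13.05, 13.07 and 12.91 in DMSO cells, where the groups overlapped.

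Of the cochaperones, DNAJB9 (ERdj4), which guides HSPA5 to IRE1 and to misfolded proteins and is itself a target of XBP1, had 11.17 and 11.01 log2 units on the SAHA arrays, against 11.34, 11.47 and 11.46 on the DMSO arrays. The groups did not overlap, and DNAJB9 was 1.26-fold lower (log2 difference -0.33 ± 0.07, 95% interval -0.53 to -0.14, adjusted p = 0.0299). This was the least firm of the calls: it ended without DMSO array 2 or 3 (adjusted p 0.11 and 0.114) and without SAHA array 1 or 2 (0.0581 and 0.109), and with its 3 probe sets averaged (log2 difference -0.32, adjusted p = 0.141). The other probe sets read -0.18 (1554462_a_at, adjusted p = 0.386) and -0.44 (202843_at, adjusted p = 0.335), the second of them with 9.09 and 8.32 in SAHA cells and 9.13, 9.22 and 9.09 in DMSO cells, where 1 SAHA array made most of the gap. The gene-level call also ended without probe sets that can share sequence with other transcripts, where the same 202843_at stands for the gene (log2 difference -0.44, adjusted p = 0.29).

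SDF2L1, a partner of the ER Hsp40 proteins that holds misfolded clients in solution, had 10.18 and 10.31 log2 units in SAHA cells and 9.66, 10.27 and 10.39 in DMSO cells. DMSO array 1 was again the lowest, and the rest overlapped. The difference of 0.14 ± 0.24 was not called (95% interval -0.50 to 0.77, adjusted p = 0.714), and without that array it was -0.09 (adjusted p = 0.502). The interval was the widest of the 10, so changes of up to 1.70-fold upward or to 0.709-fold downward could not be told from none.

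Among the disulfide isomerases, CRELD2 fell and PDIA4 was not called. CRELD2, a secreted and ER-resident protein with isomerase activity that is induced by ER stress, had 10.03 and 9.97 log2 units on the SAHA arrays, against 10.52, 10.45 and 10.54 on the DMSO arrays. Arrays within each group lay close together, with SDs of 0.041 in SAHA cells and 0.049 in DMSO cells, and the groups stood well apart. CRELD2 was 1.42-fold lower (log2 difference -0.50 ± 0.05, 95% interval -0.63 to -0.37, adjusted p = 0.00289), and stayed between -0.53 and -0.47 with any 1 array left out (adjusted p 0.0129 to 0.0264).

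PDIA4 (ERp72), a disulfide isomerase that works in complexes with HSPA5 and HSP90B1, had 11.43 and 11.33 log2 units in SAHA cells and 11.42, 11.57 and 11.61 in DMSO cells. One SAHA value lay just above the lowest DMSO value, so the groups overlapped, and the difference of -0.15 ± 0.08 was not called (95% interval -0.36 to 0.05, adjusted p = 0.245). Its second probe set, 208658_at, gave nearly the same value (log2 difference -0.14, adjusted p = 0.334).

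The 3 degradation genes went different ways. HERPUD1, a small ER membrane protein that gathers the HRD1 ubiquitin ligase complex and is rapidly turned over, had 11.54 and 11.24 log2 units on the SAHA arrays, against 12.12, 12.14 and 12.22 on the DMSO arrays. Every SAHA value was below every DMSO value, and HERPUD1 was 1.70-fold lower (log2 difference -0.77 ± 0.10, 95% interval -1.03 to -0.50, adjusted p = 0.00658). The difference stayed between -0.91 and -0.62 with any 1 array left out. The call rests on 217168_s_at, which can share sequence with other transcripts. Without such probe sets only 1569380_a_at is left to stand for HERPUD1 (log2 difference -0.05, adjusted p = 0.565 over genes). That probe set was at 6.23 and 6.21 in SAHA cells and 6.23, 6.23 and 6.36 in DMSO cells, below the array medians. It was not called over all probe sets either (adjusted p = 0.582). HERPUD1 is also known as a target of ATF4, so it belongs to more than one branch of the response.

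SEL1L, the adaptor that holds the HRD1 ligase together and passes it substrates, was higher in both SAHA arrays than in any DMSO array on each of its 4 probe sets. Among all genes tested, 22.1% lay above in this way, and the share over probe sets was not counted. The 4 probe sets read the same gene on the same arrays, so they are not independent readings. The brightest, 202061_s_at, had 11.40 and 11.15 log2 units in SAHA cells and 10.85, 11.10 and 11.08 in DMSO cells, and was not called (log2 difference 0.27 ± 0.12, 95% interval -0.05 to 0.58, adjusted p = 0.186). Over all 54613 probe sets, 202063_s_at and 202064_s_at were called higher. The first had 6.65 and 6.70 in SAHA cells and 6.09, 6.01 and 6.07 in DMSO cells (log2 difference 0.62, adjusted p = 0.00345), and the second 8.85 and 8.96 in SAHA cells and 8.41, 8.39 and 8.42 in DMSO cells (0.50, adjusted p = 0.00594). The last, 202062_s_at, differed by 0.48 (adjusted p = 0.0846). With the 4 probe sets averaged, SEL1L was called higher (log2 difference 0.46, adjusted p = 0.00255), so its gene-level call rests on which probe set stands for it. All 4 are of the kind that can share sequence with other transcripts, so SEL1L could not be tested without such probe sets.

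EDEM1, a mannosidase-like protein that marks misfolded glycoproteins for disposal and a target of XBP1, had 11.07 and 11.00 log2 units in SAHA cells and 10.95, 11.00 and 11.11 in DMSO cells. The groups overlapped fully, with a difference of 0.01 ± 0.06 (95% interval -0.15 to 0.18, 0.898-fold to 1.14-fold, adjusted p = 0.896).

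At the level of single probe sets, 4 of the 20 were called lower, 2 higher and 14 were not called, against 9.05% lower and 9.01% higher over all 54613 probe sets. The 4 lower ones were the brightest probe sets of XBP1, HERPUD1, CRELD2 and DNAJB9, and the 2 higher ones both belong to SEL1L. The lower calls were sensitive to array number: without any 1 of the 3 DMSO arrays only that of CRELD2 was left (adjusted p 0.0251 to 0.0356), with 0.0597 to 0.0692 for XBP1, 0.0593 to 0.0741 for HERPUD1 and 0.0748 to 0.165 for DNAJB9. Both SEL1L calls held in each of the 5 fits that left out 1 array (adjusted p 0.0206 to 0.0388), and ended with the arrays centred on poly-A controls (0.0751 and 0.36).

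**Figure D3:**
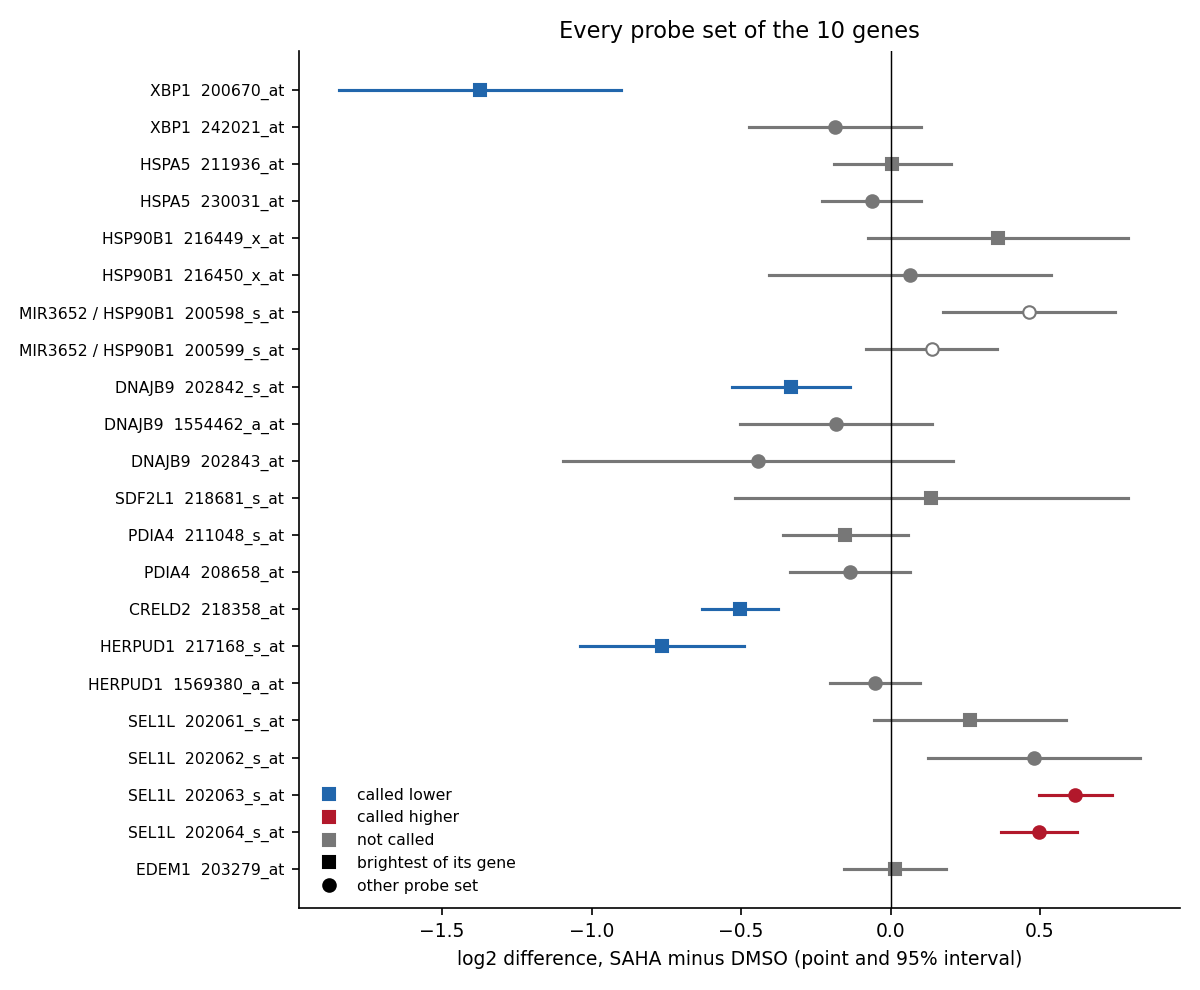
Log2 difference, SAHA minus DMSO, of every probe set of the 10 genes, with its 95% interval; squares are the brightest probe set of a gene, circles the others, and open circles the probe sets shared with MIR3652. The XBP1 probe sets differ at -1.37 and -0.19, while the 4 SEL1L probe sets all lie above 0.

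The directions near 0 depended on scaling. The array's poly-A control probe sets, meant for RNAs spiked in before labelling, had medians of 10.01 and 10.05 log2 units on the SAHA arrays, against 9.54, 9.68 and 9.74 on the DMSO arrays. With each array centred on them, the median gene differed by -0.40, and HSPA5 (-0.37, adjusted p = 0.00838), PDIA4 (-0.52, adjusted p = 0.000273) and EDEM1 (-0.36, adjusted p = 0.00897) were called lower with the 4 genes above. On that scale 73.6% of all genes were called lower and 6.88% higher (75.0% and 5.17% of all probe sets), so 7 of 10 is close to the share over all genes, and HSPA5 and EDEM1 lay just above the median gene. Relative to the median gene the order of the 10 genes is the same on either scale. Whether these controls track the amount of RNA per cell was not tested, and all other values given here are relative to the bulk of transcripts.

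Set against promoter letters, the 4 genes with the ER stress element split evenly: XBP1 and CRELD2 fell, and HSPA5 and HSP90B1 were not called. Of the pair with ER stress element II, HERPUD1 fell and SDF2L1 was not called, and DNAJB9 fell without either element in the window. Of 17 other tested genes with ER stress element II, 4 were called lower and 2 higher. Over all 19 genes with element II, 26.3% were lower and 10.5% higher, against 15.6% and 14.0% over all genes tested. Among the 14 other tested genes whose promoter held the ER stress element, 1 was called lower and 2 higher. Over all 18 such genes 16.7% were lower and 11.1% higher, close to the 15.6% and 14.0% over all genes tested. CANX, the lectin chaperone calnexin, was the lower one (log2 difference -0.29, adjusted p = 0.0122), and the oxidase ERO1B (0.64, adjusted p = 0.00344) and the actin-binding SYNPO (1.79, adjusted p = 0.000491) were the higher ones.

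None of the upstream genes ERN1, ATF6, MBTPS1 and MBTPS2 was called. ERN1 differed by -0.08 (adjusted p = 0.266), ATF6 by 0.09 (adjusted p = 0.31), MBTPS1 by 0.06 (adjusted p = 0.548) and MBTPS2 by 0.05 (adjusted p = 0.536). ERN1 was the least settled of them, since another of its probe sets was called higher (log2 difference 0.75), and with its 3 probe sets averaged the direction turned and was called (0.23, adjusted p = 0.0171). Centred on the poly-A controls, all 4 were called lower, at -0.46, -0.28, -0.31 and -0.32, as were 73.6% of all genes, whose median was -0.40. Of the 12 sensor and processing genes tested, 3 fell, 1 rose and 8 were not called (median 0.02), a share of 25.0% lower and 8.33% higher against 15.6% and 14.0% over all genes. EIF2AK3 (PERK) rose by 0.50 (adjusted p = 0.0327), and the bZIP genes CREBZF (-0.43, adjusted p = 0.047), CREB3L1 (-0.40, adjusted p = 0.0176) and CREB3L4 (-0.28, adjusted p = 0.0102) fell. Averaged over its probe sets, EIF2AK3 differed by 0.14 (adjusted p = 0.0511). The EIF2AK3 and CREBZF calls ended without any 1 of the DMSO arrays (adjusted p 0.109 to 0.15), and that of CREB3L1 without any 1 of the DMSO arrays or SAHA array 1 (0.0577 to 0.0782).

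The rest of the ER folding and degradation machinery had calls in both directions, with medians within 0.04 of 0 in each list. Among all genes tested, 15.6% were called lower and 14.0% higher, with a median of -0.03. Calls on both sides of a median near 0 were thus not particular to the lists in this and the next paragraph. Of 22 other chaperones and cofactors, 5 fell, 4 rose and 13 were not called (median 0.02). SERPINH1, the collagen chaperone, fell by 1.88 on the log2 scale and FKBP2 by 0.48, while DNAJC1 rose by 1.16 and FKBP14 by 0.76 (adjusted p 0.00132 to 0.0228). Of 14 other disulfide isomerases and oxidases, 1 fell, 3 rose and 10 were not called (median 0.03). Those called were the oxidases ERO1A (-0.62, adjusted p = 0.00282), ERO1B (0.64, adjusted p = 0.00344) and QSOX1 (0.51, adjusted p = 0.0268) and the thioredoxin-like ERP44 (0.48, adjusted p = 0.00202). The FKBP2 and QSOX1 calls each ended without DMSO array 2, DMSO array 3 or either SAHA array (adjusted p 0.0675 to 0.148).

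Of 23 other ER-associated degradation genes, 4 fell, 3 rose and 16 were not called (median -0.02). The ubiquitin-conjugating enzyme UBE2J1 fell by 1.40 and the membrane protein DERL2 by 0.73 (adjusted p 0.00191 and 0.000842), while EDEM2, a relative of EDEM1, rose by 0.99 and UBE2G2 by 0.81 (adjusted p 0.00105 and 0.00476). Without probe sets that can share sequence between transcripts, UBE2J1 differed by -0.69 and UBE2G2 by 0.04 (adjusted p = 0.828 for UBE2G2). Of 35 translocation, signal peptidase and COPII genes, 5 fell, 6 rose and 24 were not called (median 0.02). KDELR3, which returns escaped ER proteins, fell by 0.89, SRP68 by 0.50 and SPCS2 by 0.47, and SEC11C rose by 0.75 (adjusted p 0.00125 to 0.009). The SEC11C call ended without DMSO array 3 or SAHA array 1 (adjusted p 0.0553 and 0.0764), and SPCS2 was at 0.12 (adjusted p = 0.382) without the sequence-sharing probe sets. Of 23 N-glycosylation genes, 5 fell, 5 rose and 13 were not called (median -0.01). The oligosaccharyltransferase subunit DAD1 rose by 0.77, and its partners RPN1 and STT3A fell by 0.50 and 0.47, as did the glucosyltransferase ALG8 by 0.48 (adjusted p 0.00195 to 0.0173). The ALG8 call ended without DMSO array 3 or either SAHA array (adjusted p 0.0754 to 0.106) and that of STT3A without SAHA array 2 (0.0511).

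Of 16 genes of the ATF4 and CHOP branch, which lies downstream of PERK, 9 fell, 3 rose and 4 were not called, with a median of -0.49 (56.2% lower and 18.8% higher, against 15.6% and 14.0% over all genes). ATF4 itself had 11.59 and 11.39 log2 units on the SAHA arrays, against 12.27, 12.41 and 12.48 on the DMSO arrays (log2 difference -0.89, adjusted p = 0.0036). DDIT3 (CHOP) had 9.40 and 8.98 in SAHA cells, against 10.54, 10.63 and 10.90 in DMSO cells (-1.50, adjusted p = 0.00452). ATF5 and TRIB3 fell by 1.80 and 1.79 (adjusted p 0.00101 and 0.000522), or by 0.74 and 1.13 with their probe sets averaged, and the lipoprotein receptor VLDLR rose by 1.67 (adjusted p = 0.000611). Leaving out 1 DMSO array at a time left 7 to 9 of these genes lower and 2 to 3 higher. Over all genes those fits gave 10.0% to 11.9% lower and 8.95% to 10.5% higher. Without sequence-sharing probe sets 4 of the 11 still tested were lower and 2 higher (36.4% and 18.2%, against 12.3% and 12.7% over all genes). With the replicate number as a block 4 of 16 were lower and 1 higher (25.0% and 6.25%, against 6.65% and 6.38% over all genes).

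Of 21 heat shock genes outside the ER, cytosolic but for the mitochondrial HSPD1 and HSPE1, 2 fell, 4 rose and 15 were not called (median -0.01). The shares over all genes were again 15.6% lower and 14.0% higher. CHORDC1 (0.72), BAG3 (0.51) and DNAJB6 (0.49) rose and HSPD1 fell by 0.46 (adjusted p 0.00195 to 0.0188). The CHORDC1 and DNAJB6 calls ended without any 1 of the DMSO arrays (adjusted p 0.0531 to 0.0892) and that of BAG3 without DMSO array 3 or either SAHA array (0.075 to 0.102). CHORDC1 was at 0.01 (adjusted p = 0.884) and HSPD1 at -0.21 (adjusted p = 0.331) without the sequence-sharing probe sets. Centred on the poly-A controls, the higher calls of BAG3, DNAJB6, EIF2AK3, QSOX1 and ERP44 ended (adjusted p 0.3 to 0.439). The lists of related genes were not compared with one another or with the 10 genes by any test.

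**Figure D4:**
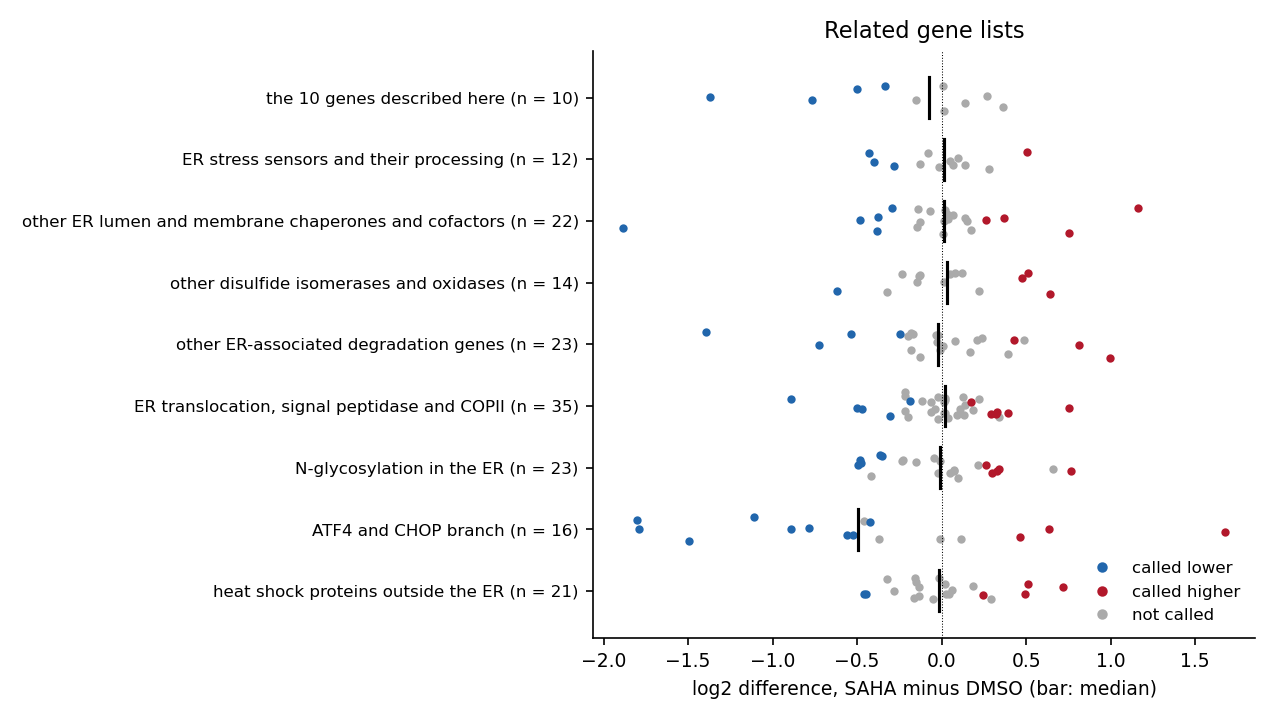
Log2 difference, SAHA minus DMSO, of each tested gene of the 10 and of 8 related lists; a point is a gene, coloured by its call, and the black bar is the median. The ER lists centre near 0 with calls on both sides, and the ATF4 and CHOP genes have a median of -0.49. All genes tested also have calls on both sides (15.6% lower and 14.0% higher).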

How the data were processed

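The data are 5 single-colour arrays of total RNA, 2 from SAHA-treated and 3 from DMSO-treated MDA-MB-231 cells. Per the submitters' processing notes the deposited values were made with RMA in R 2.12, which corrects background, normalizes quantiles and summarises probes. The deposited values are intensity on a linear scale (4.56 to 38935 over the arrays), so log2 was taken here; a shift common to most transcripts is removed by the normalization. No detection calls or scan batches were used, and the number of arrays limits the precision.

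Of 54675 probe sets, 41091 had 1 gene, 1801 several, 11721 none and 62 were controls; symbols were updated through gene identifiers for 41037. The probe set with the highest mean stood for its gene. SAHA was compared with DMSO by limma 3.58.1 in R 4.3.3 (lmFit, eBayes, 3 residual and 1.62 prior degrees of freedom, no covariates, two-sided, Benjamini-Hochberg over 19775 genes or, separately, 54613 probe sets). The steps were tested on simulated data. The 10 genes, the related lists and the markers were chosen with earlier results of these data known. Named in each list were up to 4 called genes with the largest log2 difference, with ERN1, ATF6, EIF2AK3, MBTPS1, MBTPS2, ATF4 and DDIT3, the 5 genes nearest XBP1, and CANX, ERO1B and SYNPO, singled out as the called genes with an ER stress element after their values were seen. Promoters are RefSeq's (GRCh38.p14). Alternatives covered scaling, background offset, dim genes, choice of probe set, variance model, array weights, equal values, a threshold of 0.01, leaving out each array and the replicate number as a block.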

Additional observations from a re-analysis of the deposited data

How the results depend on the processing

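The 10 genes were refitted under 18 alternatives. Of 177 values so obtained, 150 kept their direction and their side of the threshold, 9 lost the call, 16 turned direction and 2 gained a call in the same direction; of the 16, 2 also gained a call (HSPA5 and EDEM1, centred on poly-A controls). The causes were not tested. The main counts were 4 genes lower and 0 higher of the 10, 4 probe sets lower and 2 higher of the 20, and 34 related genes lower and 29 higher. Over all genes 15.6% were lower and 14.0% higher, and over all probe sets 9.05% and 9.01%. Centred on the poly-A controls, 7 genes, 14 probe sets and 113 related genes were lower, and 0 probe sets and 10 related genes were higher, where 73.6% of all genes were lower and 6.88% higher; limma's prior degrees of freedom were 79.1 there, so these p-values lean on a variance shared by all genes. Without sequence-sharing probe sets, 2 of the 7 genes still tested and 21 related genes were lower, where 12.3% of all genes were lower. HERPUD1 was at -0.05 (adjusted p = 0.565), and HSP90B1, SEL1L and SDF2L1 were not tested. With probe sets averaged, 1 of the 10 was higher, SEL1L, where 15.0% of all genes were higher. At a threshold of 0.01, 1 probe set and 21 related genes were lower and 11 related genes higher, where 8.97% of all genes were lower and 7.81% higher. With the replicate number as a block, which only 2 pairs share and which no label ties to a common culture (correlations of deviations 0.091 and -0.044), 2 genes, 0 probe sets and 11 related genes were lower and 0 probe sets and 10 related genes higher. Over all genes the block left 6.65% lower and 6.38% higher. Under the block XBP1 was at -1.42 (adjusted p = 0.0409), CRELD2 at -0.49 (0.0459), HERPUD1 at -0.74 (0.0678) and DNAJB9 at -0.32 (0.196), and the calls of DDIT3 (0.0506) and ATF4 (0.0616) ended. Leaving out 1 array at a time gave 3 to 4 genes lower and 0 higher, 1 to 4 probe sets lower and 2 higher, and 21 to 29 related genes lower and 12 to 22 higher. Over all genes those fits gave 10.0% to 14.1% lower and 8.95% to 11.3% higher, so calls were lost across the table too.

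The 16 turned directions belonged to 5 genes that were not called. HSPA5 was at -0.0225 after another quantile normalization, -0.0067 centred on ribosomal protein genes, -0.37 centred on poly-A controls, -0.0283 with probe sets averaged, -0.02 under the block and -0.0748 to 0.0875 with 1 array left out, below 0 without DMSO array 1, DMSO array 3 or SAHA array 1. EDEM1 was at -0.0050 after quantile normalization, -0.36 centred on poly-A controls and -0.0215 to 0.0595 with 1 array left out, below 0 without DMSO array 1 or SAHA array 1. Centred on poly-A controls, HSP90B1 was at -0.0118, SEL1L at -0.11 and SDF2L1 at -0.24; with 1 array left out SDF2L1 was at -0.0855 to 0.2776, below 0 only without DMSO array 1. The table has no detection calls, so how far a probe set stood above background could not be read, and values below the array medians, such as the second XBP1 and HERPUD1 probe sets, can understate a difference.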
